A study of Mus musculus with 9 samples.

Results

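Inflammatory cytokine transcripts are short-lived because RNA-binding proteins recognise their 3′ ends and recruit enzymes that remove the poly-A tail, remove the cap or cut the message. A set of 10 mouse genes that encode such regulators was followed here: the tristetraprolin family (Zfp36, Zfp36l1, Zfp36l2), the Regnase endonucleases Zc3h12a and Zc3h12c, the Roquins Rc3h1 and Rc3h2, and the AU-rich element binders Elavl1, Khsrp and Hnrnpd. They are a list of named genes, matched by Ensembl identifier with no threshold on their values, and the list was drawn up with earlier results of these data known. They are 10 of the 56289 gene identifiers in the deposited table, and all 10 were among the 13026 genes tested, those that reached 1 FPKM in 3 or more libraries. FPKM counts fragments per kilobase of gene model, scaled to the size of the library.

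The libraries are poly-A RNA of cells that the labels call macrophages of the line RAW264.7, a mouse macrophage-like line, strain BALB/c. They form 3 groups of 3: untreated cells, cells given TNF-α for 24 h, and cells given TNF-α together with WBG for 24 h. WBG stands for Wang Bi granules, a herbal preparation that the series studies as a treatment of rheumatoid arthritis. No time in culture is given for the untreated cells, so the effect of TNF and a difference in time cannot be told apart. Whether the replicates came from different cultures is not stated, and the p-values therefore measure the spread between these samples only. No group given WBG alone was analysed here, and the labels give no dose of either agent.

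Tristetraprolin and its paralogues bind AU-rich elements and bring in the CCR4-NOT deadenylase. The Regnases and Roquins recognise stem-loops in an overlapping set of messages: Regnase-1 cuts them, and the Roquins recruit deadenylation and decapping factors. KSRP (Khsrp) promotes decay, AUF1 (Hnrnpd) promotes it in many settings, and HuR (Elavl1) is known for holding AU-rich messages stable. Several of these genes are themselves induced by inflammatory signals and have AU-rich or stem-loop elements in their own messages, so that the system feeds back on itself.

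Transcripts that define macrophages were nearly absent from the libraries. Ptprc (CD45), Itgam (CD11b), Adgre1 and Tyrobp were listed at 0 in all 9 libraries, and 2 of 16 macrophage markers had a mean of at least 1 FPKM, Cd14 and Cd68. Of 14 fibroblast markers 12 reached that level, with a median of 267 FPKM over the list, and none of the 8 lymphocyte or the 8 epithelial and endothelial markers did. The results below therefore describe the regulators in cells with this profile. The libraries had similar totals, with 12611 to 12737 genes at or above 1 FPKM. In bulk RNA, fewer cells of a type and less RNA per cell cannot be told apart.

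The sequence that tristetraprolin proteins bind was looked up in the members' own 3′ untranslated regions. The letters searched were TTATTTATT, the DNA form of the nonamer at the core of an AU-rich element, on the mRNA strand, in the longest 3′ untranslated region of each gene in GENCODE M21 (mouse build GRCm38). Of 11152 tested genes with such a region, 944 (8.46%) held it at least once. The nonamer was present in 6 of the 10 members: once each in Zfp36, Zfp36l1, Zfp36l2, Rc3h1 and Rc3h2, and 8 times, with overlaps, in Elavl1. Zc3h12a, Zc3h12c, Khsrp and Hnrnpd held no match in this region. Longer regions hold more matches by length alone. Among genes with a region of 0.8 to 1.25 times the length, the share with a match was 4.90% for Zfp36 (774 bases), 9.60% for Zfp36l1 (1835 bases), 17.9% for Elavl1 (4218 bases) and 25.4% for Rc3h1 (7181 bases). These sites are shown because they put 5 of the decay regulators and HuR among the messages that carry the element the family reads. Each line gives 30 bases of the 3′ untranslated region, 5′ to 3′ on the mRNA strand, with the nonamer in capitals. A match is a description of the letters and not a measured binding site.

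Zfp36, chr7:28376950-28376979, minus strand: tatgacgactTTATTTATTgtattaagatt
Zfp36l1, chr12:80108166-80108195, minus strand: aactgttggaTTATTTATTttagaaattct
Zfp36l2, chr17:84184913-84184942, minus strand: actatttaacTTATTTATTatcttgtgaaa
Rc3h1, chr1:160970043-160970072, plus strand: actttactcaTTATTTATTgagatgaggag
Rc3h2, chr2:37373286-37373315, minus strand: caaagacattTTATTTATTttactctgtaa
Elavl1, second of its matches, chr8:4285783-4285812, minus strand: tgaaaattatTTATTTATTtatttattttt

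Because FPKM is scaled to gene length, the levels of the members are set side by side. The lengths used are not given, and the order of the members depends on them. Zfp36l2 was the highest, between 51.3 and 57.43 FPKM in the 9 libraries, above every library of Khsrp (45.4 to 51.1 FPKM). Khsrp and Hnrnpd (37.36 to 47.68 FPKM) overlapped, as did the next pair, Zfp36l1 (22.97 to 27.4 FPKM) and Elavl1 (21.03 to 25.33 FPKM). Zc3h12a, Rc3h2, Zfp36 and Rc3h1 overlapped one another between 4.68 and 12.77 FPKM. Zc3h12c was the lowest, at 3.78 to 4.32 FPKM. Zfp36l2 had a higher mean than 91.1% of the genes tested, Zfp36 than 43.0% and Zc3h12c than 25.3%.

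**Figure D1:**
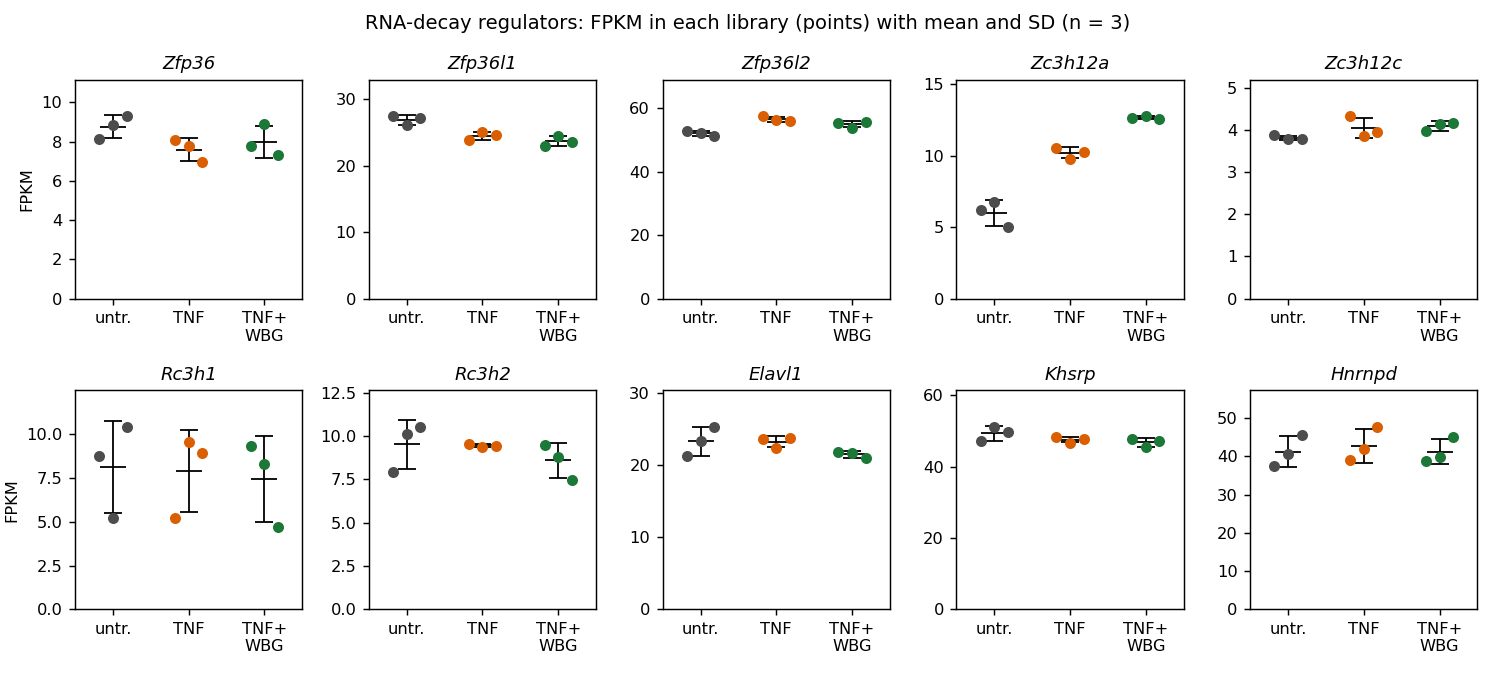
FPKM of the 10 RNA-decay regulators in each library (points), with the mean and SD of the 3 libraries of each group; each panel has its own vertical axis from 0. In Zc3h12a the groups form 3 separate levels (5 to 6.77, 9.78 to 10.54 and 12.58 to 12.77 FPKM), in Zfp36l2 they are also separate but closer (51.3 to 52.82 untreated, 53.77 to 55.71 with TNF plus WBG and 55.79 to 57.43 with TNF), and Rc3h1 has 1 low library in every group.

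Exposure to TNF was followed by a rise in 1 of the 10 regulators, Zc3h12a, while the other 9 did not pass the test. Over all genes tested, 10.6% were called at an adjusted p under 0.05 (6.43% higher, 4.21% lower), so 1 call among 10 members is a share near the background. Across all genes the 2 groups did not overlap for 30.0% (15.5% higher, 14.4% lower), and this held for 4 of the 10 members. Those 4 were Zc3h12a and Zfp36l2, higher with TNF, and Zfp36 and Zfp36l1, lower. The median log2 fold change of the members was 0.001, beside 0.0 over all genes.

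Zc3h12a (ENSMUSG00000042677) encodes Regnase-1, the endonuclease that cuts stem-loops in the messages of Il6, Nfkbiz and other inflammatory genes. In GENCODE M21 it is a protein-coding gene with 6 exon blocks on the minus strand of chr4:125118423-125127840, and no exon of another gene overlaps it. Its level was 6.18, 6.77 and 5 FPKM in the untreated libraries, 10.54, 9.78 and 10.28 FPKM with TNF, and 12.67, 12.77 and 12.58 FPKM with TNF plus WBG. All TNF libraries lay above all untreated ones, and all TNF plus WBG libraries lay above all TNF ones. From untreated to TNF the mean rose 1.7-fold, from 5.98 ± 0.90 to 10.2 ± 0.38 FPKM (SD, n = 3). On the scale of log2(FPKM + 1) the rise was 0.69 ± 0.088 (SE), with a 95% interval of 0.49 to 0.89 and a limma adjusted p of 0.00127. The call held in all 19 alternatives run, with adjusted p between 0.00104 and 0.00841. The summed level of the 16 macrophage markers, most of it Cd14 (4.3 to 7.61 FPKM), was 6.37 to 7.83 FPKM in untreated, 8.37 to 9.26 FPKM in TNF and 8.83 to 11.69 FPKM in TNF plus WBG libraries. The summed fibroblast markers were 5508 to 5872 FPKM in untreated, 5889 to 6183 FPKM in TNF and 5830 to 5928 FPKM in TNF plus WBG libraries, the last overlapping both of the others. The part of either in the rise was not tested.

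**Figure D2:**
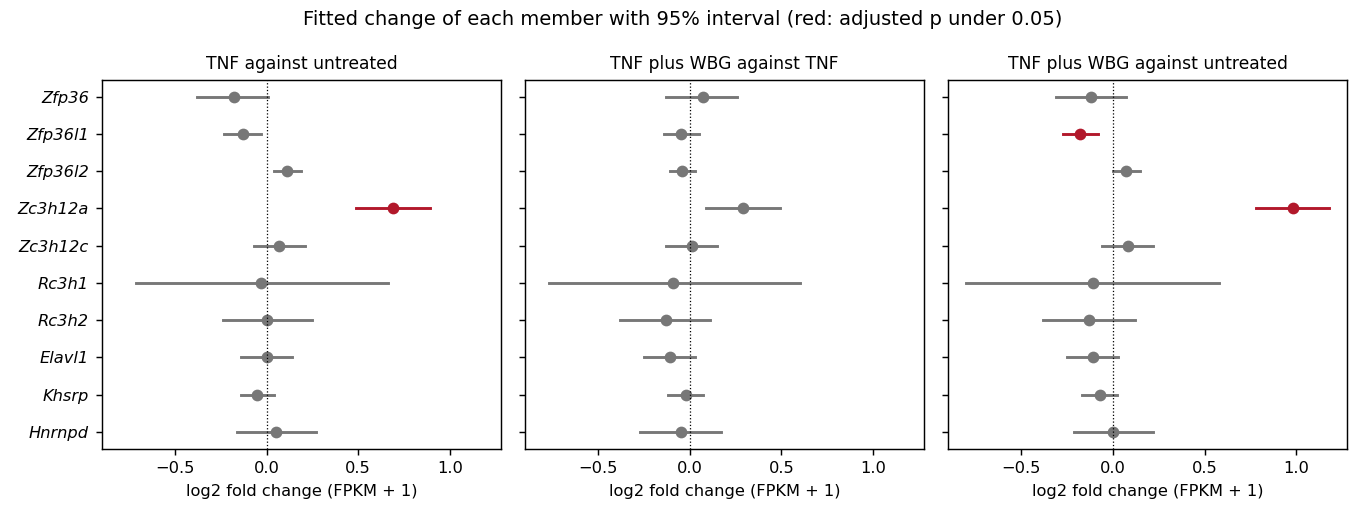
Fitted log2 fold change of each regulator on the FPKM + 1 scale (points) with its 95% interval (bars) in the 3 comparisons; red marks an adjusted p under 0.05. Zc3h12a lies to the right of 0 in every panel, and the intervals of Rc3h1 are the widest.

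The RefSeq promoter of Zc3h12a (build GRCm38.p6, chr4:125127832-125128131, minus strand, 300 bases around the start) is shown because it is the member that rose. On both strands it held 5 GC boxes, GGGCGG or its complement, which stand in capitals. A GC box was found in 35.7% of 32851 promoters of this length. It held no match to the NF-kB consensus, which 8.46% of those promoters held, and none to the CArG box, the site of serum response factor. That says only that these letters are not in this window. Promoters of 9 members were in the table, with 10 start sites. An NF-kB match was found at 1 of the 2 starts of Zc3h12c, and a CArG box in Zfp36 and Hnrnpd.

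Zc3h12a: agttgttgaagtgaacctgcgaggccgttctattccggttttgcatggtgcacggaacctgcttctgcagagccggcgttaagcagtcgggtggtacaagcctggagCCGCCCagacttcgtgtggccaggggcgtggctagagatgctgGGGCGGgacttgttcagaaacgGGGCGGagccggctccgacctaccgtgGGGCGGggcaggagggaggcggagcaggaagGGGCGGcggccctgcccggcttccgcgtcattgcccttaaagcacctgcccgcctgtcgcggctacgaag

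No gene of the tristetraprolin family passed the test after TNF. Zfp36, tristetraprolin itself, stood at 8.14, 8.84 and 9.29 FPKM in untreated cells and at 8.06, 7.75 and 6.95 FPKM with TNF. The TNF libraries lay below the untreated ones, by a log2 difference of -0.18 with a 95% interval of -0.38 to 0.01 (limma adjusted p = 0.223). Zfp36l1, a paralogue that also binds AU-rich elements, stood at 27.4, 26.05 and 27.2 FPKM untreated and at 23.81, 24.99 and 24.62 FPKM with TNF. Its groups did not overlap either, and the difference of -0.13 (-0.23 to -0.03) did not pass the test (limma adjusted p = 0.0963). Zfp36l2, the most abundant of the family, was 52.82, 52.13 and 51.3 FPKM untreated and 57.43, 56.22 and 55.79 FPKM with TNF. All its TNF libraries were the higher ones, by 0.11 (0.04 to 0.19), with a limma adjusted p of 0.0597. That came to 0.0494 when genes with a mean under 5 FPKM were left out. In every other alternative it stayed above 0.05, up to 0.168. Each of the 3 intervals excludes a change of 0.5 on the log2 scale in either direction.

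The other Regnase and the Roquins did not pass the test. Zc3h12c (Regnase-3) was 3.87, 3.78 and 3.79 FPKM untreated and 4.32, 3.86 and 3.94 FPKM with TNF, with overlapping groups and a log2 difference of 0.07 (-0.07 to 0.21). Rc3h1 (Roquin-1) varied widely within every group. It was 8.72, 5.22 and 10.39 FPKM untreated, 5.23, 9.56 and 8.89 FPKM with TNF, and 9.33, 8.27 and 4.68 FPKM with TNF plus WBG. One library of each group lay at 4.68 to 5.23 FPKM and the other 6 at 8.27 to 10.39 FPKM, and the low libraries carry 3 different replicate numbers. The SD within groups was 0.44 on the log2 scale, larger than in 98.0% of the genes tested. The TNF difference of -0.03 therefore had an interval from -0.71 to 0.66. That interval holds a fall as large as the rise of 0.69 in Zc3h12a, and rises up to just short of it. Rc3h2 (Roquin-2) did not share that pattern: in the same 3 libraries it read 10.1, 9.55 and 7.48 FPKM. Its TNF difference was 0.00 (-0.24 to 0.25).

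Elavl1, Khsrp and Hnrnpd had intervals that held 0 after TNF, that of Hnrnpd the widest of the 3. HuR (Elavl1) had a mean of 23.3 FPKM both without and with TNF, with a difference of 0.00 (-0.14 to 0.14). Khsrp differed by -0.05 (-0.14 to 0.04), from 49.3 ± 2.0 to 47.5 ± 0.74 FPKM. Hnrnpd differed by 0.05 (-0.16 to 0.27), from 41.2 ± 4.1 to 42.8 ± 4.5 FPKM, with the third library the highest in every group (45.54, 47.68 and 45.1 FPKM). Of these 3, Elavl1 shares 204 exon bases with Ccl25 on the opposite strand, which was at 10.12 to 15.03 FPKM, and Hnrnpd shares 385 with the antisense gene Gm17092 at 1.76 to 2.26 FPKM. Zfp36, Zfp36l1, Zfp36l2, Zc3h12c and Khsrp also overlap a gene on the opposite strand, each of the 4 such genes in the table at 1.17 FPKM or less. The gene without a value is Gm26669, a lincRNA that shares 1672 of the 2990 exon bases of Zfp36l1. Such reads cannot be told apart here, since nothing in the sources used says whether strand was used in counting.

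When WBG was added to TNF, none of the 10 regulators passed the test. Over all genes 0.0998% were called in limma (13 of 13026; 0.0691% higher and 0.0307% lower), so that few calls were made anywhere. At an unadjusted p under 0.05, 9.06% of genes passed (1180), and 1 member, Zc3h12a. Its mean was 1.24 times that with TNF, 12.7 ± 0.098 beside 10.2 ± 0.38 FPKM (SD, n = 3). The log2 difference was 0.29 (0.09 to 0.49), with a limma p of 0.0101 and an adjusted p of 0.449. Over the 19 alternatives the adjusted p lay between 0.341 and 0.688. The TNF libraries are the higher group in the comparison with untreated cells and the lower group here, so that the 2 differences of Zc3h12a share them.

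The libraries with and without WBG did not overlap for 3 of the 10 members, where 14.7% of all genes had such groups (7.03% higher and 7.72% lower with WBG). Beside Zc3h12a these were Elavl1 and Zfp36l2, both lower with WBG. Elavl1 was 23.69, 22.4 and 23.79 FPKM with TNF and 21.9, 21.68 and 21.03 FPKM with TNF plus WBG, a difference of -0.11 (-0.25 to 0.03; limma adjusted p = 0.662). Zfp36l2 was 55.21, 53.77 and 55.71 FPKM with TNF plus WBG, a difference of -0.04 (-0.11 to 0.03). For Zfp36 (7.76, 8.89 and 7.32 FPKM with WBG) and Zfp36l1 (22.97, 24.49 and 23.53 FPKM) the groups overlapped, with differences of 0.07 (-0.13 to 0.26) and -0.05 (-0.14 to 0.05). The remaining 5 members had overlapping groups as well. Their log2 differences ran from -0.13 for Rc3h2 to 0.01 for Zc3h12c, and the median over all 10 was -0.044, beside -0.003 over all genes.

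Cells given both agents differed from untreated cells in 2 regulators, Zc3h12a upward and Zfp36l1 downward, where 9.19% of all genes were called (5.52% higher, 3.67% lower). Zc3h12a rose 2.12-fold (log2 0.98, 0.78 to 1.18; limma adjusted p = 0.000171). Its call held in all 19 alternatives, with adjusted p from 0.00012 to 0.00195. Zfp36l1 fell to 0.88 of its level, from 26.9 ± 0.73 to 23.7 ± 0.77 FPKM (SD, n = 3), by 0.18 on the log2 scale (interval of the difference -0.27 to -0.08; limma adjusted p = 0.0339). That call was kept in 10 of 19 alternatives. It was lost without untreated library 1 or 3, without TNF library 2 or 3 and without TNF plus WBG library 1 or 3, with adjusted p up to 0.112. The exons of Zfp36l1 share 1672 bases with Gm26669 on the opposite strand, whose level is not known. The groups did not overlap for 4 members, beside 28.1% of all genes (14.5% higher, 13.6% lower): Zc3h12a, Zfp36l2 and Zc3h12c were higher and Zfp36l1 was lower. Zfp36l2 differed by 0.07 (0.00 to 0.15; limma adjusted p = 0.218) and Zc3h12c by 0.08 (-0.06 to 0.22). The other 6 had overlapping groups and differences from -0.13 to 0.00.

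The paralogues' shares of their family's summed FPKM show the same values in another form. Zfp36l2 made up 59.4 ± 0.816% of the tristetraprolin family in untreated cells, 63.8 ± 0.559% with TNF and 63.4 ± 1.5% with TNF plus WBG (SD, n = 3). Zfp36l1 made up 30.6%, 27.6% and 27.3%, and Zfp36 between 8.0 and 10.6% in the 9 libraries. No test was made on shares, and their size depends on the gene lengths used, which are not given. The summed FPKM of the family was 87.7, 88.5 and 86.5 in the 3 groups. Zc3h12a was 48.2 ± 3.63% of the Regnase family untreated, 61.8 ± 1.53% with TNF and 65.1 ± 0.317% with TNF plus WBG. Zc3h12b and Zc3h12c held most of the rest, and Zc3h12d at most 2.0% in any library. The sum of that family was 12.4 FPKM untreated, 16.5 with TNF and 19.5 with TNF plus WBG. The Roquins were close to equal, with Rc3h1 at 45.4, 44.8 and 45.5% on average and at 34.1 to 52.4% in single libraries.

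**Figure D3:**
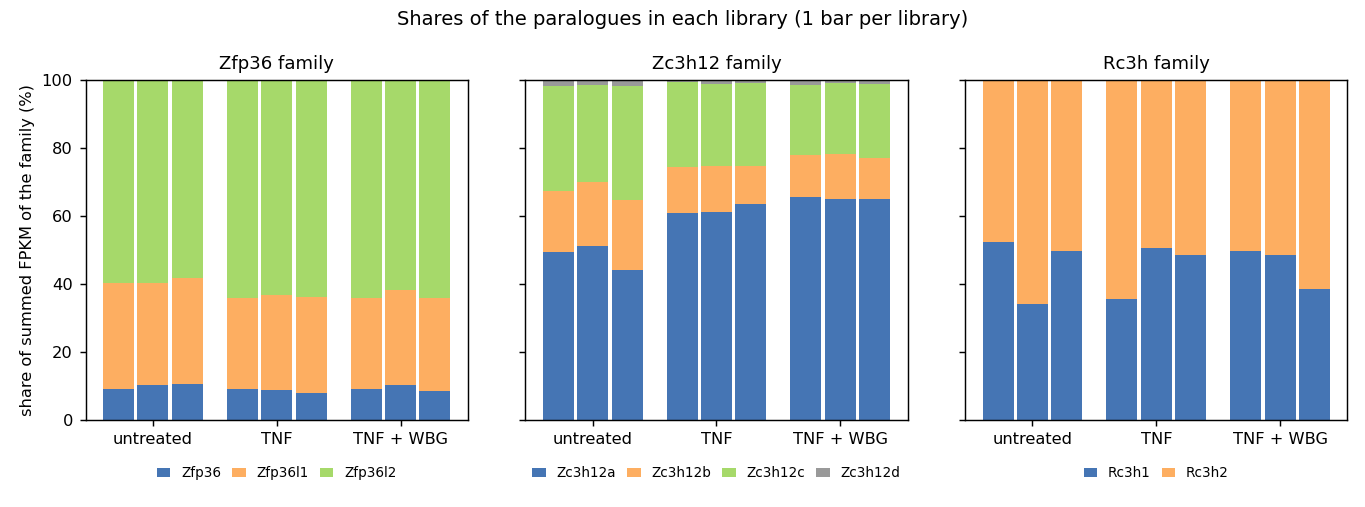
Percent of the summed FPKM of each family that each paralogue held, 1 bar per library, 3 libraries per group. In the Zc3h12 family the share of Zc3h12a is 44.1 to 51.1% in untreated libraries and 60.9 to 65.4% in the treated ones; in the Rc3h family 1 bar in each group stands below the other 2.

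The genes whose log2 levels followed those of the called members most closely over the 9 libraries were found by Pearson's r, as a description of libraries that fall into 3 groups. For Zc3h12a these were the zinc finger gene Zfp469 (r = 0.988), the ubiquitin ligase Rnf19b (0.981) and Gm2a, a lysosomal activator of ganglioside breakdown (0.979). Rnf19b had means of 34.9, 43.1 and 45.6 FPKM in the untreated, TNF and TNF plus WBG groups. For Zfp36l1 they were Bckdha, a subunit of branched-chain keto acid dehydrogenase (0.966), the stress-induced Sesn1 (0.964) and the ribosome biogenesis factor Tsr1 (0.961). Sesn1 had means of 29.2, 22.6 and 22.1 FPKM. Zc3h12a and Zfp36l1 entered this step because they were called, in opposite directions, against untreated cells. Their r of -0.934 over the same libraries reflects that choice.

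Around the members stands the machinery that carries out the decay, and most of it did not pass the test after TNF. The share called over all genes was 10.6%, with 6.43% higher and 4.21% lower. Of 12 protein partners of the regulators 1 was called, Tnip1, an A20-binding protein linked to NF-kB control. It was 17.4, 16.92 and 17.53 FPKM untreated and 42.2, 44.5 and 45.64 FPKM with TNF, with no overlap. It rose 2.55-fold (log2 1.30 ± 0.042, limma adjusted p = 3.71e-07). Among 20 deadenylation genes Tob1, which links CCR4-NOT to its targets, rose by 0.21 (51.3 ± 0.46 to 59.5 ± 0.23 FPKM, adjusted p = 0.00334). The poly-A binding protein gene Pabpc4 fell by 0.31 (156.0 ± 0.30 to 126.0 ± 4.0 FPKM, adjusted p = 0.00107). These calls held in all 19 alternatives.

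Of 14 decapping and 5′ decay genes 1 fell, Lsm14b (-0.24, adjusted p = 0.0443), a call kept in 9 of 19 alternatives. It was lost without untreated library 1 or 2, without any 1 TNF library, and without TNF plus WBG library 3, with adjusted p up to 0.125. Of 10 nonsense-mediated decay genes 1 fell, the endonuclease gene Smg6 (-0.23, adjusted p = 0.0135), whose call was lost without untreated library 3 or TNF library 3 (adjusted p up to 0.0526). Its exons overlap those of Srr, at 3.88 to 8.94 FPKM, on the opposite strand. Among 21 other AU-rich and stem-loop binders none was called. The largest difference there was that of Arid5a, which protects stem-loop messages from Regnase-1, at 0.26 (12.0 ± 1.6 to 14.6 ± 2.4 FPKM, adjusted p = 0.291). At an unadjusted p under 0.05, 3 of the 21 passed, beside 24.0% of all genes. Of 17 exosome and Ski complex genes none was called and 5 passed at an unadjusted p under 0.05, with the largest difference in Exosc7 (-0.27, adjusted p = 0.14). Single libraries decided some of these counts. A binder was called without untreated library 2, TNF library 3 or TNF plus WBG library 1, an exosome gene without untreated library 3 or TNF library 1, and a second partner without TNF library 1 or TNF plus WBG library 3.

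Of 14 genes listed for signalling to the regulators 2 rose, both p38 kinases, where 6.43% of all genes rose. The list was not tested against the rest. Some kinases of the p38 family, though not all, act through MK2 to phosphorylate tristetraprolin. Mapk11 (p38β) was 5.5, 6.35 and 5.37 FPKM untreated and 10.96, 10.83 and 10.75 FPKM with TNF. It rose 1.89-fold (log2 0.82 ± 0.068, limma adjusted p = 9.02e-05), with no overlap of the groups. Mapk12 (p38γ) rose 1.45-fold (0.48, adjusted p = 0.00885). Mapk14 (p38α), the most abundant p38 gene listed, went the other way and did not pass the test. It was 19.6, 18.78 and 20.38 FPKM untreated and 17.96, 15.64 and 17.99 FPKM with TNF. Dusp1, the phosphatase that switches p38 off, was 16.1 ± 0.36 FPKM untreated and 17.5 ± 0.12 FPKM with TNF (0.11, adjusted p = 0.187).

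Several known target messages of the regulators rose after TNF. Of 30 listed, 17 passed the filter on low values. After TNF 7 rose, 1 fell and 9 did not pass, where 6.43% of all genes rose and 4.21% fell. Zc3h12a was among the 7 and Zfp36 among the 9. The list was drawn up with earlier results of these data known and was not tested against the rest. The median of the 17 was 0.291, beside 0.0 over all genes. Ccl2, a monocyte chemokine, was 38.1, 32.72 and 37.13 FPKM untreated and 264.87, 261.81 and 268.8 FPKM with TNF (log2 2.85, adjusted p = 5.42e-08). Cxcl1, a neutrophil chemokine, rose 7.59-fold (2.26), the kinase gene Pim1 2.72-fold (1.26) and the stress gene Ier3 1.66-fold (0.70). Nfkbiz (0.44) and Rel (0.39), an IkB-like protein and an NF-kB subunit, rose as well. Fos was 8.94, 10.25 and 8.35 FPKM untreated and 4.35, 4.34 and 5.31 FPKM with TNF, a fall of 0.85 (adjusted p = 0.00291). The cyclooxygenase gene Ptgs2 was 5.22 ± 0.59 FPKM untreated and 4.24 ± 0.32 FPKM with TNF (-0.25, adjusted p = 0.143).

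Several of the best known targets could not be followed. Tnf, Il10 and Il12b were listed at 0 in all 9 libraries, Il6 at 0.08 FPKM or less and Csf2 at 0.25 FPKM or less. Lcn2, whose message is a Regnase-1 target, was listed at 0 in the 6 libraries without WBG. With WBG it was at 0.47, 0.6 and 0.53 FPKM, under the filter and therefore left out of the main fit. Only the alternative with no filter took Lcn2 in, and its result there is not reported here. Among the targets that changed with TNF, Cxcl1, Pim1, Fos and Rel held the nonamer, and Ccl2, Ier3, Nfkbiz and Zc3h12a did not. Of the 9 that did not pass, Lif, Ptgs2, Vegfa, Dusp1 and Zfp36 held it too, and Myc, Tfrc, Tnfrsf4 and Plaur did not. The first match of the 2 in Cxcl1, the first of the 3 in Pim1 and the one in Fos are shown, with the same capitals as above, because the first 2 genes rose and the third fell.

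Cxcl1, chr5:90892615-90892644, plus strand: atttatgtatTTATTTATTccacaaagtgt
Pim1, chr17:29495689-29495718, plus strand: tttaatgtatTTATTTATTtatttatttgg
Fos, chr12:85477103-85477132, plus strand: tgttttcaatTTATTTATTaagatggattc

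**Figure D4:**
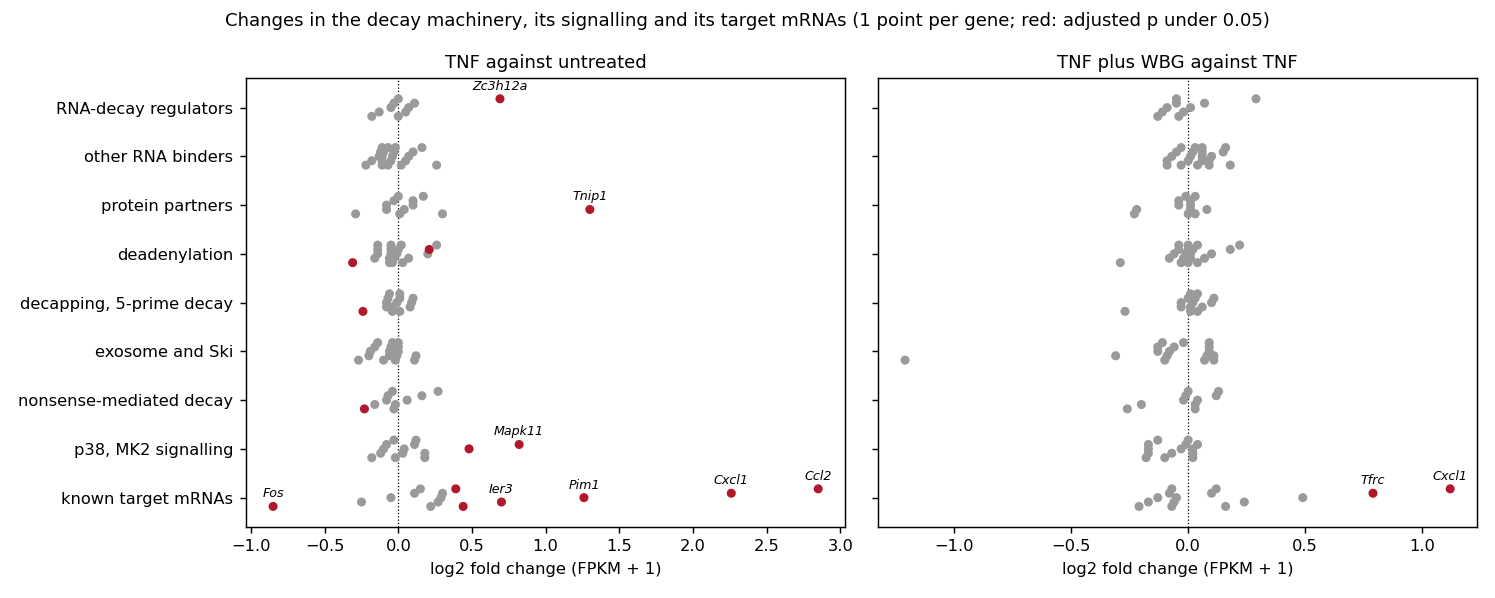
Log2 fold change on the FPKM + 1 scale of each tested gene in the regulator list and 8 lists around it, 1 point per gene, with TNF against untreated on the left and TNF plus WBG against TNF on the right; red marks an adjusted p under 0.05. Most lists cluster near 0 on both sides, while Tnip1, Mapk11 and the target messages Ccl2, Cxcl1, Pim1, Ier3 and Fos stand away from it with TNF, and Cxcl1 and Tfrc with WBG.

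WBG added to TNF gave 2 calls in these lists, both among the targets, where 0.0998% of all genes were called. Over the alternatives the target list had 2 to 3 calls, and any beyond the 2 was of a gene under the filter. Cxcl1 was 11.34, 10.52 and 9.37 FPKM with TNF and 20.41, 26.58 and 24.66 FPKM with TNF plus WBG (log2 1.12, adjusted p = 0.00514). Tfrc, the transferrin receptor gene and a stem-loop target of Regnase-1 and the Roquins, was 42.35, 36.72 and 43.14 FPKM with TNF and 72.15, 73.24 and 67.79 FPKM with TNF plus WBG (0.79, adjusted p = 0.00384). Both groups of each gene were separate, and both calls held in all 19 alternatives. In the other 7 lists around the regulators no gene was called. There the numbers at an unadjusted p under 0.05 were 3 of 21 binders, 1 of 12 partners, 3 of 20 deadenylation, 1 of 14 decapping, 1 of 17 exosome, 1 of 10 nonsense-mediated decay and 2 of 14 signalling genes. At that threshold 9.06% of all genes passed. The largest difference in those lists was that of the exosome gene Exosc6 (-1.21, adjusted p = 0.691). It rests on 1 library, TNF plus WBG 2 at 0.24 FPKM beside 11.75 and 11.33 FPKM in the other two, and its exons overlap those of Aars on the same strand. Pan3 (-0.29), Dcp1a (-0.27), Smg5 (-0.26), Malt1 (-0.23), Hnrnpa1 (0.18) and Irak1 (-0.18) had the largest differences in the other lists, with adjusted p from 0.488 to 0.677.

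Against untreated cells, TNF plus WBG gave calls for 8 targets upward and 1 downward of 17. The shares over all genes were 5.52% higher and 3.67% lower. The 8 were the same 7 as with TNF and Tfrc, and Fos was the 1 downward (-0.72). The untreated libraries serve both comparisons. Tnip1 (1.26) and Tob1 (0.17) were called upward again, as was Mapk11 (0.65), and Smg6 downward (-0.24), the last of these lost without untreated library 1 or 3 or TNF plus WBG library 2. Mapk12 stood at 0.31 with an adjusted p of 0.066, and was called without TNF library 1. Wdr61, a Ski complex subunit, fell by 0.29 (adjusted p = 0.0216), a call lost without untreated library 1 or 2 or TNF plus WBG library 2 or 3. Its exons share 1581 bases with Dnaja4, at 2.78 to 3.46 FPKM, on the opposite strand. Pcbp1, a poly-C binding protein gene, fell by 0.14 (adjusted p = 0.0428). That call was kept in 7 of 19 alternatives and, of the 9 libraries, was kept only on leaving out TNF plus WBG library 3. The exosome and Ski list had a second call without TNF library 3. No gene of the decapping list was called here, except Dcp1a without TNF plus WBG library 1, and 2 of 14 passed at an unadjusted p under 0.05, beside 22.8% of all genes. Dcp1a had the largest difference (-0.26, adjusted p = 0.131).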

How the data were processed

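The authors deposited 1 table of FPKM, with 9 libraries as columns (poly-A selected, paired-end, Illumina NovaSeq, per the labels' protocols). Aligner, quantifier, annotation and build: not given in the sources used here. No counts were used, and depth is known only from the steps between low values. Read as 1 fragment each, the steps give 18.9 to 26.0 M (mega) fragments per library, and 25.0 to 27.9% of the values tested fell within 0.02 of a multiple (4% if spread evenly). Steps of 0.5 that size give 37.8 to 52.2 M, so no counting interval is given. Symbols came from GENCODE M21, and 1145 of 56289 identifiers had no match.

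Genes below 1 FPKM in more than 6 libraries were left out. The log2(FPKM + 1) of all 9 libraries was fitted on group alone in limma 3.58.1 under R 4.3.3, allowing a trend on expression, in two-sided tests with Benjamini-Hochberg adjustment over the 13026 genes kept and a threshold of 0.05. The pseudocount of 1 makes log2 fold changes of low genes too small. The fit was also run on simulated data with independent noise. The outcome is not given here and bounds none of the results. Intervals of log2 differences are the 95% intervals of the fit.

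The members and lists were chosen with earlier results of these data known. Named are all members, up to 2 called genes per direction and list (or the 1 with the largest difference), any kept target and the 3 genes most like a called member. The single markers, low targets, Mapk14 and other overlapped genes were chosen after their values were seen, as were the sequence searches. Alternatives were pseudocounts of 0.1 and 5, no filter, a mean of at least 5 FPKM, median-ratio and quantile scaling, only the 6 libraries compared, no trend, robust limma, a replicate block and omission of each library. Tables and figures were made in python 3.11.15 (pandas 2.3.3, numpy 2.4.6, matplotlib 3.10.9).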

Additional observations from a re-analysis of the deposited data

How the results depend on the processing

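Of 567 fits of a member under another setting, 532 kept direction and side of the threshold, 9 lost a call, 1 gained one and 25 changed sign, none of them called. The 9 were all Zfp36l1 in TNF plus WBG against untreated, so that 1 member in place of 2 was called with only the 6 libraries compared, without the trend, with the replicate block and on leaving out single libraries (1 to 2). The 1 gained was Zfp36l2 with TNF, giving 2 called members with the stricter filter. Leaving out single libraries gave 919 to 1296 calls over all genes with TNF, the lowest without TNF library 3, where fewer samples were fitted. For TNF plus WBG against TNF it gave 8 to 14, the lowest without untreated library 1, and 7 with only the 6 libraries compared. The cause was not tested.

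Signs changed in results that were not called. Rc3h2 with TNF was -0.001 with a pseudocount of 5 and -0.0 with median-ratio scaling, Elavl1 with TNF was 0.0 with a pseudocount of 0.1, and Hnrnpd with both agents was -0.01 after quantile scaling. On leaving out single libraries, TNF differences ran from -0.279 to 0.211 for Rc3h1, -0.113 to 0.072 for Rc3h2, -0.061 to 0.058 for Elavl1 and -0.025 to 0.127 for Hnrnpd. For WBG they ran from -0.006 to 0.119 for Zfp36, -0.011 to 0.054 for Zc3h12c, -0.324 to 0.176 for Rc3h1 and -0.114 to 0.029 for Hnrnpd. For both agents against untreated they ran from -0.365 to 0.149 for Rc3h1 and -0.063 to 0.077 for Hnrnpd. Of 456 counts in the lists 50 moved, either by over 1.5 times or between 0 and another number.

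Over the genes tested, libraries that share a replicate number did not deviate together (r from -0.072 to 0.107), and 2 of 9 correlated best with their own number. Hnrnpd, though, was lowest in library 1 and highest in library 3 of every group. With the replicate block 1159, 8 and 1046 genes were called, where 1386, 13 and 1197 were called without it, and Zfp36l1 had an adjusted p of 0.071 in the comparison with untreated cells. With 3 libraries a group, Rc3h1 is the member on which these data say least, and depth is not known well enough to bound the rest.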

Other observations

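The nonamer was also followed over all tested genes. Of the 944 genes that hold it in the 3′ untranslated region, 60 rose (6.36%) and 40 fell (4.24%) with TNF, beside 7.05% and 4.73% of the 10208 genes without it. Genes with the element had longer regions (median 2350 beside 1120 bases). With both agents against untreated cells, 5.83% rose and 4.24% fell among genes with the element, beside 6.01% and 3.98% among those without. Of the 208 genes with at least 2 matches, 10 rose and 12 fell with TNF. The difference between genes with and without these letters was not tested.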
